A study of Mus musculus with 20 samples.

Results

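The genes described are those of the proteasome subunits as the array platform names them. All probe sets whose single gene symbol starts with Psma, Psmb, Psmc or Psmd were taken, without Psmb8, Psmb9 and Psmb10, and each gene was read from its probe set with the highest mean over the 20 arrays. The rule found 36 genes of the 12393 that carry a single symbol, on 65 probe sets, and 34 of the 36 passed the filter on dim probe sets. Psma8 and Psmd10 did not. The platform names hold 32 subunits and 4 genes that share the prefix but are not stable subunits: Psmd5, Psmd9 and Psmd10, chaperones of proteasome assembly, and Psmc3ip, a protein of meiotic recombination.

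RNA came from skeletal muscle of 20 mice, 1 array for each, in 4 groups of 5: untrained wild-type (WTUT in the titles), trained wild-type (WTT), untrained transgenic (TGUT) and trained transgenic mice (TGT). The series title says that the training is endurance training and that the transgenic mice over-express MHC-I. The sources used here do not say which molecule that abbreviation names, what promoter drives the transgene, which muscle was taken, the sex, age and strain, the training protocol, or the time from the last bout to sampling. The description field calls every sample transgenic and trained, against titles and source names, which were followed. Values are array intensities on a linear scale, and differences are log2 differences after adding 66.7 to each intensity. This shrinks the differences of dim genes more than those of bright ones.

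The proteasome is the protease of cytosol and nucleus that degrades proteins tagged with ubiquitin. Its 20S core is a barrel of alpha rings, which gate the entry, and beta rings, which hold the proteolytic sites; the 19S cap has a base, whose ATPases unfold the substrate and thread it into the core, and a lid, which removes the ubiquitin chain. In skeletal muscle the ubiquitin-proteasome system breaks down myofibrillar proteins, and subunit transcripts are known to rise with ubiquitin ligases such as Fbxo32 in several forms of muscle wasting.

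Median intensities of the arrays lay between 156.7 and 174.9, and the 3' probe set of Gapdh exceeded its 5' probe set by 0.01 log2 on average in every group. The array of trained wild-type mouse wtt-137 had 822 empty cells and that of trained transgenic mouse TGT-133 had 386, of 1745 in all. Of the proteasome genes' values, 1 was empty. The labelled tissue was borne out by its markers: the summed intensity of 9 skeletal muscle genes such as Acta1, Ckm and Myh4 ran from 113100 to 124100. Of these 9, Myh1, a fast myosin heavy chain, rose with training (log2 0.21 ± 0.05, adjusted p = 0.0303 in limma). Sums over 6 immune markers ran from 791 to 909 in untrained and from 974 to 1137 in trained wild-type mice, and from 728 to 860 and from 755 to 1067 in transgenic mice. The brightest of them, Lyz2, averaged 346 and 535 in wild-type and 331 and 392 in transgenic mice, untrained and trained. Only 2 of the 6 passed the filter, Lyz2 and Adgre1. Neither was called for training (log2 0.36 ± 0.11 and 0.00 ± 0.05). The leukocyte marker Ptprc averaged 41.1 over the 20 arrays. Sums over 5 fibroblast genes ran from 3627 to 6168 and from 5167 to 6827 in wild-type, and from 5744 to 7130.0 and from 5262 to 7768 in transgenic mice. Of these genes Col3a1 was called higher after training. Dcn, the brightest, differed by -0.11 ± 0.10 log2 with training, Col1a1 by 0.27 ± 0.11 and Col1a2 by 0.32 ± 0.14, and none of these was called. Empty cells were left out of the sums. Cd3e, an immune marker, and the fibroblast genes Col1a1 and Col1a2 each had values in 4 of 5 trained wild-type mice. The ranges of that group can thus include a sum over fewer genes. Sums over 4 adipocyte genes spread widely. They ran from 2728 to 8596 in WTUT, 3504 to 9571 in WTT, 4151 to 5881 in TGUT and 2321 to 10370 in TGT mice. The part of these shifts and spreads in the results below was not tested. In a whole-muscle sample, fewer cells of a type and less RNA per cell cannot be told apart.

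With training the fitted transcript levels of all 31 tested subunits of core and cap were slightly lower, and a few of these differences passed the test. Averaged over genotypes, 5 of the 34 tested genes fell, by 1.11- to 1.24-fold: Psma2 of the alpha ring, the proteolytic subunit Psmb7, the ATPase Psmc6, and Psmd2 and Psmd4 of the base. None rose. Over all 13576 probe sets tested, limma called 2.59% lower, 2.41% higher and 4.99% in either direction at the same threshold, an adjusted p of 0.05. Log2 differences were below 0 for 33 of the 34 genes, a share that was 49.3% over all probe sets; they ran from -0.31 to 0.09 with a median of -0.18, against 0.00 over all probe sets. At an unadjusted p under 0.05 in limma stood 25 of the 34 and 2806 of all probe sets. The 34 genes moved together within a mouse: all 34 lay below their own mean in TGT-132 and only 2 in TGUT-131. These counts over genes are therefore not counts of separate observations.

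The count of called genes rested on single mice, while the median and the number below 0 changed little with 1 mouse left out. Without 1 of WTUT-135, wtt-137, TGUT-131, TGT-128 or TGT-140 no gene was called. The count was 1 without WTUT-130, TGUT-139 or TGUT-147, 2 without WTUT-136, WTUT-142, WTT-129, WTT-141 or TGT-132, 3 without wtt-134, 9 without TGUT-145 and 19 without TGUT-146. Over these 20 fits the median ran from -0.21 to -0.16 and 33 genes stayed below 0 in each. The number called lower over all probe sets moved as well, from 109 without TGT-128 to 662 without TGUT-146. It was 351 in the main fit, so that the swings were not limited to the proteasome genes. Centring arrays on their medians left 2 proteasome genes called, as did testing without a filter, while array weights gave 25. Of all probe sets limma called 206 lower with centring, 218 of 22626 without a filter and 1586 with array weights.

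**Figure D1:**
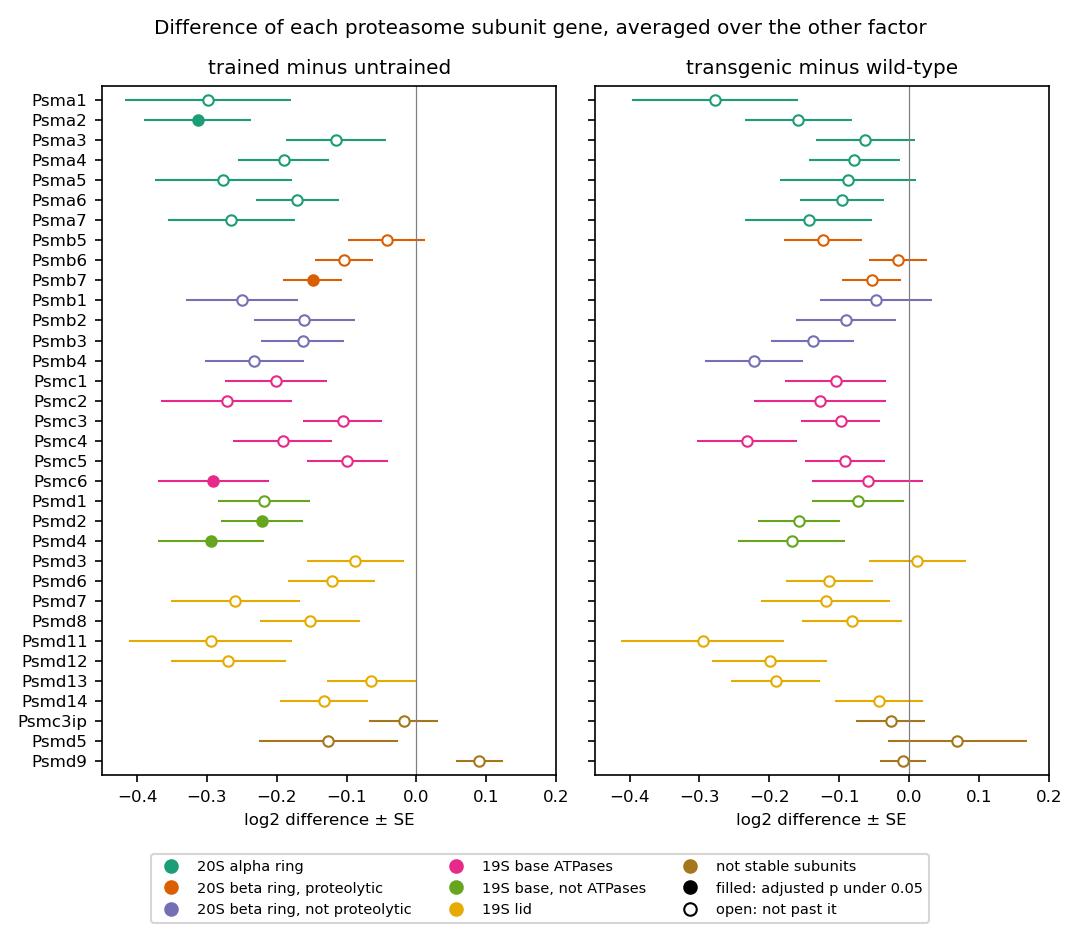
Log2 difference ± SE of each of the 34 tested proteasome genes (rows, coloured by role) for training averaged over genotypes (left) and for the transgene averaged over training (right). On the left 33 of 34 lie below 0 and the 5 filled points passed the threshold; on the right 32 lie below 0 and none passed.

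The promoters of the proteasome genes were searched for the core of the antioxidant response element, TGACNNNGC, to which Nfe2l1 and Nfe2l2 bind with small Maf proteins. They were also searched for CCAAT, to which NF-Y binds. RefSeq windows of assembly GRCm38.p6, from 250 bases before to 50 after the start, covered 29 of the 36 genes; those not searched are Psma8, Psmb1, Psmb2, Psmb7, Psmc3, Psmd3 and Psmd7. The first motif stood on either strand in 5 of 29 (17.2%), Psmb5, Psmb6, Psmc6, Psmd9 and Psmd12, against 14% of all 27025 genes with such a window (3781). CCAAT stood in 12 of 29 (41.4%), against 41.1% of all genes. Stretches of 60 bases are shown for the called genes that hold a motif and for the proteolytic subunits Psmb5 and Psmb6, 5' to 3' on the gene's own strand, with the motif in capitals; in Psmd4 and Psmc6 it lies on the opposite strand and reads as its reverse complement.
Psma2, chr13:14613160-14613219, plus strand, CCAAT: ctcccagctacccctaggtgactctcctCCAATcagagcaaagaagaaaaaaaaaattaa
Psmd4, chr3:95042678-95042737, minus strand, CCAAT: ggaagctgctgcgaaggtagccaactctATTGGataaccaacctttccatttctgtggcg
Psmc6, chr14:45329574-45329633, plus strand, TGACNNNGC: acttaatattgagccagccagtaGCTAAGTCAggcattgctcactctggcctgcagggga
Psmb5, chr14:54618009-54618068, minus strand, TGACNNNGC: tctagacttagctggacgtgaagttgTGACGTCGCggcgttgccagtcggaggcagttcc
Psmb6, chr11:70525297-70525356, plus strand, TGACNNNGC: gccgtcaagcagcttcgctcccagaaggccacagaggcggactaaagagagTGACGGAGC
The motif shown ends 50 bases before the start in Psma2, 91 in Psmd4, which holds 2 further CCAAT matches in the bases after its start, 219 in Psmc6, 39 in Psmb5 and 1 in Psmb6. A match is a run of letters and no evidence of binding. Psma2, Psmd4 and Psmc6 fell with training, while Psmb5 and Psmb6 did not pass the threshold. Psmd2, which fell, held neither motif in its window. Psmd9, which is not a stable subunit and holds the first motif, was the sole tested gene above 0 for training. A part of either motif in the training differences was not tested.

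In the alpha ring, whose subunits form the gated entry of the core, all 7 tested genes had log2 differences below 0 with training, from -0.31 to -0.11 with a median of -0.26, and 1 fell. Psma2 read 1508, 1617, 1528, 1475 and 1552 in untrained wild-type mice (here and below in the order of their numbers: WTUT-130, WTUT-135, WTUT-136, WTUT-138 and WTUT-142). In trained wild-type mice (WTT-129, wtt-134, wtt-137, WTT-141 and WTT-144) it read 1400.1, 1236, 1104, 1379 and 1460.2, each below every untrained one. Untrained transgenic mice (TGUT-131, TGUT-139, TGUT-145, TGUT-146 and TGUT-147) gave 1671, 1899, 1170.0, 1167 and 1557, and trained ones (TGT-128, TGT-132, TGT-133, TGT-140 and TGT-143) gave 1007, 1087, 1078, 1091 and 1186. The untrained transgenic mice were divided, with TGUT-145 and TGUT-146 at the level of the trained mice and the other 3 above it. Psma2 fell by 0.31 ± 0.08 (SE, log2), or 1.24-fold, with an adjusted p of 0.0259 in limma, and kept its call in 15 of 20 fits that each omitted 1 mouse. Psma1 (log2 -0.30 ± 0.12), Psma5 (-0.28) and Psma7 (-0.26) had differences of similar size with larger errors and did not pass, nor did Psma3, Psma4 and Psma6, from -0.19 to -0.11.

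Among the beta subunits that cut, training went with small differences. Psmb7, which carries the trypsin-like site, read 3337, 3378, 3395, 3203 and 3365 in WTUT and 3124, 3033, 2958, 2947 and 3539.7 in WTT mice. In transgenic mice it read 3546, 3421, 3162, 3159.9 and 3376 untrained and 2652, 2878, 3038, 2699 and 3226 trained. Its trained groups overlap the untrained ones only through mice WTT-144 and TGT-143. Psmb7 fell by 0.15 ± 0.04 (SE, log2), or 1.11-fold, with an adjusted p of 0.0482 in limma, and kept its call in 5 of 20 fits that each omitted 1 mouse.

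Psmb6, which carries the caspase-like site, and Psmb5, which carries the chymotrypsin-like site, did not pass; both hold the TGACNNNGC run shown above. Psmb6 read 1675, 1655, 1835, 1702 and 1735 in WTUT and 1617, 1553, 1634, 1559 and 1791 in WTT mice, 1814, 1831, 1693, 1548 and 1808 in TGUT and 1569, 1572, 1500.0, 1552 and 1703 in TGT mice, all overlapping, with a log2 difference of -0.10 ± 0.04 (adjusted p = 0.149 in limma). Psmb5 read 1944, 2019, 2167, 2196 and 1830.0 in WTUT and 1876, 1785, 2159.5, 1883 and 2067 in WTT mice; wtt-137, low in most subunits, was the highest trained wild-type mouse here. In transgenic mice Psmb5 read 1921, 2112, 1743, 1584 and 1879.6 untrained and 1761, 1658, 1881, 1712 and 2009.5 trained, so that all 4 groups overlap. Its log2 difference with training, -0.04 ± 0.06 (adjusted p = 0.742 in limma), was the nearest to 0 among the 31 tested subunits of core and cap. The proteolytic subunits had a median of -0.10, against -0.20 for the 4 beta subunits without a site; the difference between these groups was not tested.

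The 4 beta subunits without a proteolytic site, Psmb1, Psmb2, Psmb3 and Psmb4, had log2 differences from -0.25 to -0.16 with training and none passed. Psmb4 came closest. It read 2031, 2079, 2192, 2376 and 2052 in WTUT and 1937, 1777, 1722, 1945 and 2132 in WTT mice, 2213, 2333, 1520.0, 1645 and 1969 in TGUT and 1404, 1546, 1689, 1419 and 1697 in TGT mice. All 5 trained transgenic mice lay below all 5 trained wild-type mice. The training difference of Psmb4 was -0.23 ± 0.07 log2 (adjusted p = 0.0625 in limma).

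In the cap's base, all 6 ATPases had values below 0 with training, from -0.29 to -0.10 with a median of -0.20, and Psmc6 fell. It read 1520.3, 1641, 1443, 1252 and 1703 in WTUT and 1388, 1432, 1003, 1337 and 1289.6 in WTT mice. In transgenic mice it read 1747, 1728, 1371, 1173 and 1645 untrained and 1006, 1238, 1180.2, 1211 and 1207 trained. Only mouse TGUT-146 of the untrained transgenic mice reached down to the trained range. Psmc6 fell by 0.29 ± 0.08 (SE, log2), or 1.22-fold, with an adjusted p of 0.0402 in limma, and kept its call in 6 of 20 such fits. Psmc4, another of these ATPases, read 875, 939.5, 850.2, 834 and 879 in WTUT, 846, 728, 639.8, 831 and 939 in WTT, 897, 892, 639, 626 and 826 in TGUT and 608, 646, 604, 621 and 701 in TGT mice. The low values are those of wtt-137, TGUT-145, TGUT-146 and the TGT group, and its difference of -0.19 ± 0.07 did not pass (adjusted p = 0.121 in limma).

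Of the 3 base subunits that are not ATPases 2 fell, Psmd2 and Psmd4. Psmd4, a receptor that binds the ubiquitin chain, read 2618, 2693, 2708, 2724 and 2401 in WTUT and 2216, 2182, 1871, 2118 and 2268 in WTT mice, with no overlap. In transgenic mice it read 2698, 2817, 1956, 1833 and 2499 untrained and 1574, 1884, 2228, 1758 and 2063 trained, and there mice TGUT-145 and TGUT-146 again lay among the trained ones. Psmd4 fell by 0.29 ± 0.08 (SE, log2), or 1.23-fold, with an adjusted p of 0.0342 in limma, and kept its call in 11 of 20 fits that each omitted 1 mouse.

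Psmd2, a scaffold that docks ubiquitin shuttle proteins, read 2431, 2435, 2325, 2427 and 2389 in untrained wild-type mice, which lie close together. It read 2099.8, 2007, 1913, 2011 and 2495 in trained wild-type mice, of which mouse WTT-144 exceeded every untrained one. Untrained transgenic mice gave 2386, 2385, 2073, 1796 and 2394 and trained ones 1613, 1842, 1981, 1771 and 1976. Psmd2 fell by 0.22 ± 0.06 (SE, log2), or 1.17-fold, with an adjusted p of 0.0362 in limma, and kept its call in 7 of 20 such fits. Psmd1, the other large scaffold of the base, read 1777, 2026, 1917, 1729 and 1883 in WTUT and 1623, 1701, 1338, 1531 and 1615 in WTT mice, with no overlap. It read 1918, 1990.4, 1709.6, 1330.1 and 1777 in TGUT and 1383, 1438, 1727, 1437 and 1593 in TGT mice, and its difference of -0.22 ± 0.07 stopped short of the threshold (adjusted p = 0.06 in limma).

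**Figure D2:**
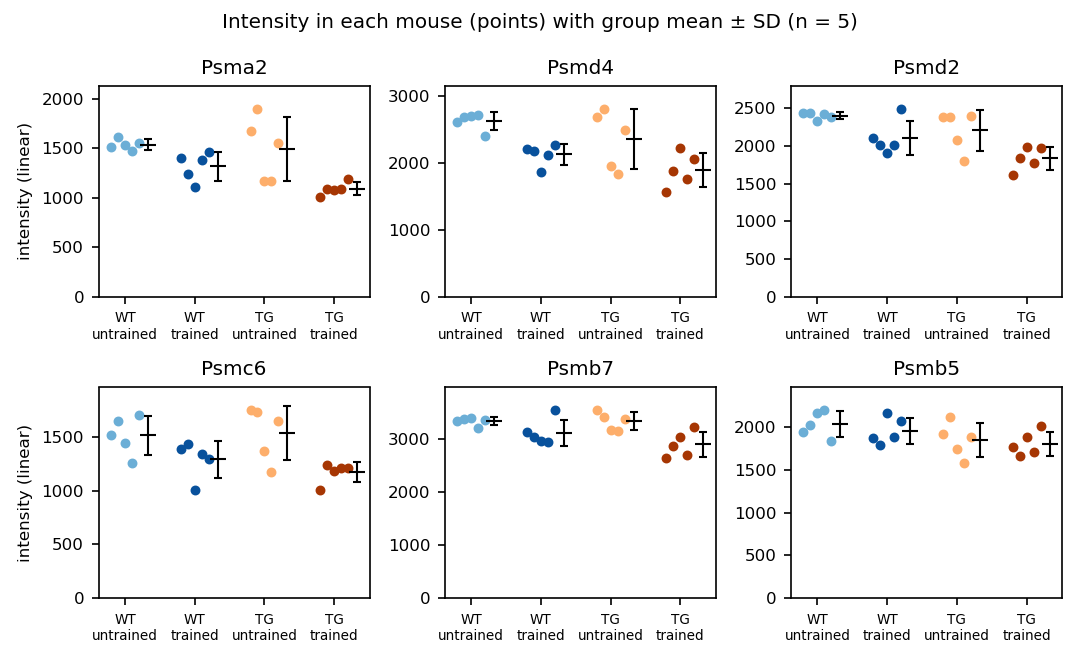
Intensity on a linear scale in each mouse (points, in the order of mouse numbers) with the group mean ± SD (n = 5) for the 5 genes called lower with training and for Psmb5. In Psma2 the 5 trained transgenic mice lie between 1007 and 1186, below all 5 untrained wild-type mice, while the groups of Psmb5 overlap.

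In the lid, which holds the deubiquitinase Psmd14, all 8 genes had training differences below 0, from -0.29 to -0.06 with a median of -0.14, and none passed. Psmd12 came closest, with 1654, 1806, 1591, 1543 and 1748 in WTUT and 1401, 1420.4, 1108, 1454 and 1506 in WTT mice, which do not overlap. It read 1717, 1678, 1278, 1004 and 1675 in untrained and 1118, 1195, 1143, 1174 and 1303 in trained transgenic mice, and differed by -0.27 ± 0.08 log2 (adjusted p = 0.0633 in limma). Psmd11, a subunit that clamps lid to core and base, spread widely, with 2977, 3415, 3163, 3176 and 3305 in WTUT and 2713, 2873, 1845, 3069.9 and 3163 in WTT mice. Psmd11 read 3431, 3500.0, 2037, 1837 and 3092 in TGUT and 1755, 2442, 2239, 1891 and 2281 in TGT mice, so that wtt-137, TGUT-145 and TGUT-146 again lay in the range of the TGT group. Its difference of -0.29 ± 0.12 log2 equalled that of Psmd4, but its SE was larger and it did not pass (adjusted p = 0.149 in limma). Psmd13 read 574, 642, 694, 697 and 578 in WTUT, 623, 530.2, 639.9, 612 and 694 in WTT, 622, 637, 515, 446 and 605 in TGUT and 499, 476, 499.8, 549.6 and 587 in TGT mice. It differed by -0.06 with training, and Psmd14 by -0.13 ± 0.06 (adjusted p = 0.24 in limma).

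The 3 tested genes that share the prefix without being stable subunits had a median of -0.02, and none passed. Psmd9, a chaperone of base assembly, was the sole tested gene with a value above 0 for training (0.09 ± 0.03 log2, adjusted p = 0.12 in limma), with group means of 193 ± 11.5 (SD, n = 5) in WTUT and 215 ± 13.2 in WTT mice, and 197 ± 14.9 and 208 ± 7.2 in transgenic mice. Psmc3ip differed by -0.02 ± 0.05 and Psmd5 by -0.13 ± 0.10; neither passed. Psmd10 averaged an intensity of 64.9 over the 20 arrays, under the filter of 126, and Psma8 was dimmer still.

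Mice differed as wholes. For each mouse the median was taken over the 34 genes of the log2 deviation from each gene's own mean over the 20 mice. Untrained wild-type mice lay close together, at 0.11, 0.20, 0.13, 0.08 and 0.15. Trained wild-type mice lay at 0.03, -0.04, -0.23, 0.02 and 0.11, of which mouse wtt-137, the one with the most empty cells, was the lowest. Untrained transgenic mice fell apart into TGUT-131, TGUT-139 and TGUT-147 at 0.20, 0.22 and 0.18 and TGUT-145 and TGUT-146 at -0.08 and -0.26. Trained transgenic mice lay at -0.25, -0.17, -0.15, -0.20 and -0.07, all below 0. In trained transgenic mouse TGT-132 all 34 genes were below their own mean, and in WTUT-136, TGUT-131 and TGUT-139 only 2 were. The same median over all tested genes with a single symbol stayed between -0.05 and 0.04 in every mouse.

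**Figure D3:**
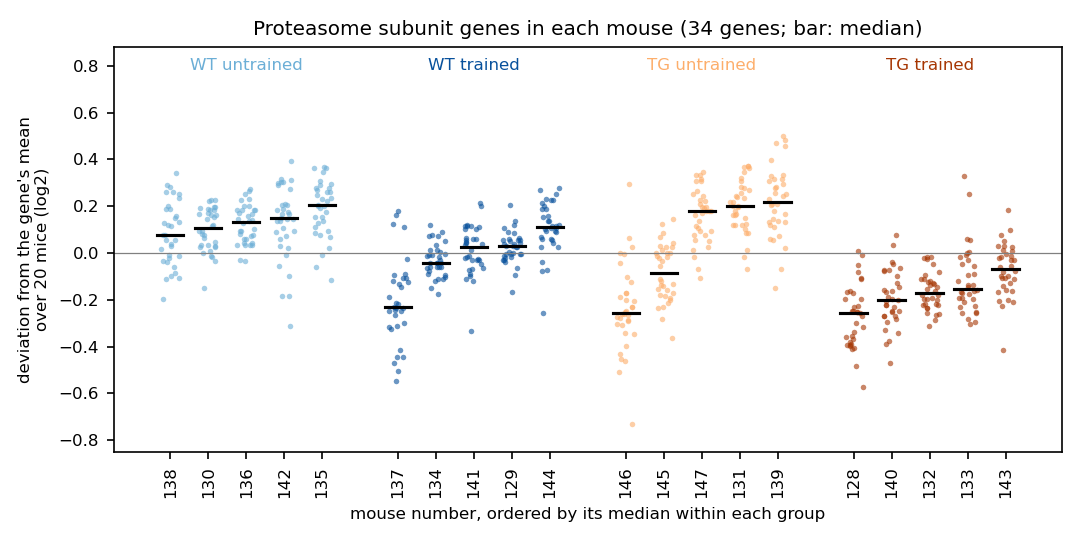
Log2 deviation of each of the 34 genes (points) from its mean over the 20 mice, by mouse and group, with the median of each mouse as a bar. The bars of the 5 trained transgenic mice lie between -0.25 and -0.07, those of the 5 untrained wild-type mice between 0.08 and 0.20, and the untrained transgenic mice are divided.

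Fbxo32, the muscle ubiquitin ligase atrogin-1, also spread widely between mice. It read 7171, 6109, 5444, 6690.3 and 5165 in untrained and 5619.7, 4339.8, 1149, 5957 and 6184 in trained wild-type mice. Untrained transgenic mice gave 9033, 8676, 2794, 2562 and 6376, and trained ones 1666, 4930.2, 3240.2, 1827 and 3121. Mouse wtt-137 was the lowest of the wild-type mice in Fbxo32 as in the proteasome median, and mice TGUT-145 and TGUT-146 were the lowest untrained transgenic mice in both. The order of mice was not the same throughout. TGT-132, with a proteasome median of -0.17, had the highest Fbxo32 of the trained transgenic mice. Among untrained wild-type mice the proteasome median was highest in WTUT-135 and Fbxo32 in WTUT-130. Averaged over genotypes Fbxo32 differed by -0.74 ± 0.30 with training and was not called (adjusted p = 0.159 in limma). What sets wtt-137, TGUT-145 and TGUT-146 apart was not tested. The sources used here give no time of day or feeding state at sampling.

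Within each genotype the training differences pointed the same way, and none of the 34 genes passed in either. In wild-type mice the median was -0.14, 32 of 34 genes were below 0 (50.1% of all probe sets) and 6 had an unadjusted p under 0.05 in limma, as had 1069 of all 13576 probe sets, of which it called 0. Without wtt-137 this median was -0.09. In transgenic mice the median was -0.23, 33 were below 0 (48.3%) and 20 had an unadjusted p under 0.05, as had 2362 of all probe sets. Limma called 0.309% of all probe sets there. The smallest adjusted p was 0.0752, for Psma2 in transgenic mice, with a log2 difference of -0.41 ± 0.11; in wild-type mice Psma2 differed by -0.22 ± 0.11 and Psmd4 by -0.30 ± 0.11. Without untrained transgenic mouse TGUT-146 limma called 11 genes in transgenic mice and without mouse TGUT-145 it called 3. Of all probe sets it called 40 higher and 239 lower without TGUT-146, and 298 higher and 464 lower without TGUT-145.

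Trained and untrained wild-type mice did not overlap in 4 of the 34 genes, Psma2, Psmd1, Psmd4 and Psmd12, each lower after training. Over all probe sets, 1.0% were lower without overlap in that comparison. In transgenic mice the 2 groups overlapped in all 34, against 2.05% of all probe sets that were lower without overlap. The interaction, which tests whether training acted differently in the genotypes, called 0 of 34 genes and 0 of all probe sets in limma, and 0 of the 34 had an unadjusted p under 0.05. A value below 0 here means that the training difference was lower in transgenic than in wild-type mice. Values ran from -0.20 to 0.07 with a median of -0.07, and 26 of 34 were below 0, against 50.9% of all probe sets. This median ran from -0.14 without TGUT-146 to -0.03 without WTT-144, was -0.12 without wtt-137 and was -0.04 without TGUT-131, TGUT-139 or TGUT-147.

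**Figure D4:**
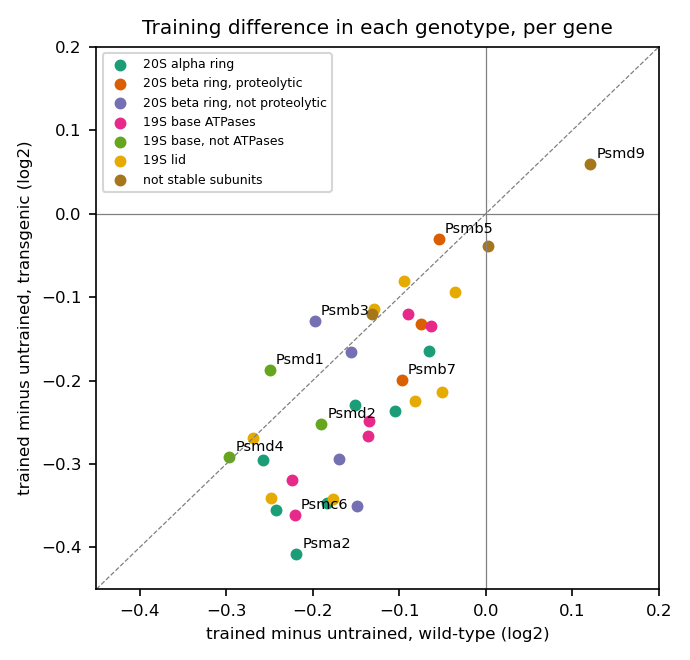
Log2 difference between trained and untrained mice of each of the 34 genes in wild-type (horizontal axis) and transgenic mice (vertical axis), coloured by role, with a dashed line of equal differences. Except for Psmd9 and Psmc3ip all points lie in the lower left, and 26 of 34 lie below the dashed line.

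The transgene averaged over training went with lower values too, and no proteasome gene was called. The median was -0.10, against 0.00 over all probe sets, 32 of 34 genes were below 0 (48.3% of all probe sets), and 10 had an unadjusted p under 0.05, as had 2355 of all 13576 probe sets. Limma called 1.23% of all probe sets here, 0.906% lower, among them Cdh5, 1 of 5 endothelial markers. The summed endothelial markers ran from 1237 to 1877 in WTUT, 1369 to 1604 in WTT, 1239 to 1571 in TGUT and 1149 to 1435 in TGT mice, and their part in these values was not tested. The smallest adjusted p was that of Psmc4 (-0.23 ± 0.07, adjusted p = 0.107 in limma), followed by Psmb4 (-0.22 ± 0.07, adjusted p = 0.116) and Psmd13 (-0.19 ± 0.06, adjusted p = 0.133). Psmd11 differed by -0.30 ± 0.12 and Psmd12 by -0.20 ± 0.08. Psma2 and Psmc6, which fell with training, differed by -0.16 ± 0.08 and -0.06 ± 0.08, and Psmb6 by -0.02 ± 0.04. Under quantile normalization the median was -0.04 and 26 of 34 genes were below 0. Without TGUT-146 the median was -0.06, and without wtt-137 limma called 1 gene, Psmc4. Of all probe sets limma called 387 lower without wtt-137, against 123 in the main fit.

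By training state, the transgene's median over the 34 genes was -0.06 in untrained and -0.13 in trained mice, with 27 and 32 genes below 0 (47.9% and 48.2% of all probe sets). The untrained median rested on single mice: it was 0.01 without TGUT-146, with 16 genes below 0, -0.03 without TGUT-145, -0.11 without TGUT-131 and -0.10 without TGUT-147. The trained median was -0.20 without wtt-137. Limma called 0 of 34 in both, with 0 and 5 genes at an unadjusted p under 0.05, against 1103 and 1692 of all 13576 probe sets; it called 0.110% and 0.0516% of all probe sets. In trained mice Psmc4 differed by -0.29 ± 0.10 and Psmb4 by -0.28 ± 0.10, with adjusted p-values of 0.284 and 0.285 in limma. Psmb4 was also the sole gene in which the groups of trained mice did not overlap, which held for 1.69% of all probe sets in the same direction. These comparisons share their mice with those of training: the trained transgenic group is the low group in both, and the divided untrained transgenic group enters both.

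Further probe sets of the same genes mostly gave values of the same sign. Of 29 that the rule did not pick 19 were bright enough to be tested, and 17 of these were below 0 for training, with a median of -0.20. Limma called 2 of them lower, 1 each of Psmc6 and Psmd4. Those above 0 were the dimmest tested probe sets of Psmd4 (0.01) and Psmd11 (0.00). For the transgene 17 of the 19 were below 0, with a median of -0.16, and none was called.

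The inducible subunits of the immunoproteasome, Psmb8, Psmb9 and Psmb10, which replace Psmb5, Psmb6 and Psmb7 in cells exposed to interferon, were not called. Psmb10 averaged 252 ± 41.6 (SD, n = 5) in WTUT, 278 ± 31.8 in WTT, 251 ± 28 in TGUT and 282 ± 24.6 in TGT mice. The training difference of Psmb8 was 0.01 ± 0.04 log2, that of Psmb9 -0.02 ± 0.04 and that of Psmb10 0.13 ± 0.06. None of the 3 was called for training or for the transgene, and Psmb8 lay only just above the filter on dim probe sets.

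Beyond the subunits, 6 of 25 activators, assembly factors and associated proteins fell with training and none rose. Over all 13576 probe sets limma called 2.59% lower and 2.41% higher. The list was chosen with earlier results of these data known. Psme1, of the activator that interferon induces, had a training difference of 0.13 ± 0.05, the activator Psme4 -0.14 ± 0.06, the assembly factor Pomp -0.04 ± 0.05 and the deubiquitinase Usp14 0.03 ± 0.04, and none passed. Those that fell were the ubiquitin shuttle proteins Ubqln1, Ubqln2 and Rad23b, the unfoldase Vcp with its cofactor Ufd1, and Zfand2a, a stress-induced protein that binds the proteasome; Rad23b, Vcp and Ufd1 are named after their values were seen. Zfand2a fell by 0.67 ± 0.15 (SE, log2; adjusted p = 0.0174 in limma), from 642 ± 125 (SD, n = 5) to 414 ± 87.2 in wild-type and from 408 ± 176 to 197 ± 33 in transgenic mice, and it was the sole list member called for the transgene, where it fell by 0.75 ± 0.15 (adjusted p = 0.0154). Ubqln1 fell by 0.28 ± 0.07 (adjusted p = 0.023) and Ubqln2 by 0.38 ± 0.09 (adjusted p = 0.0262). The median over these 25 genes was -0.04.

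Nfe2l1, the transcription factor known to raise subunit genes when proteasome activity is low, had a training difference of -0.11 ± 0.05 (adjusted p = 0.227 in limma) and a transgene difference of -0.11 ± 0.05. It averaged 2002 ± 83 and 1890.2 ± 81.1 (SD, n = 5) in wild-type and 1897 ± 231 and 1715 ± 116 in transgenic mice, untrained and trained. The related factor Nfe2l2 had -0.20 ± 0.15 for training, and of the 7 tested factors and processing enzymes none was called. Of 10 tested genes of ubiquitin activation and conjugation none was called either. In limma 3 of them had an unadjusted p under 0.05, as had 2806 of all 13576 probe sets. Among 11 ubiquitin ligases of muscle Ubr4 fell by 0.30 ± 0.07 (adjusted p = 0.0262), Trim54 by 0.26 ± 0.07 (adjusted p = 0.0385), and Stub1, a ligase that works with chaperones, rose by 0.21 ± 0.05 (adjusted p = 0.0316). Of all probe sets 2.59% were called lower and 2.41% higher. Psme2, Adrm1, Ubb and Trim63 were not analysed here.

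**Figure D5:**
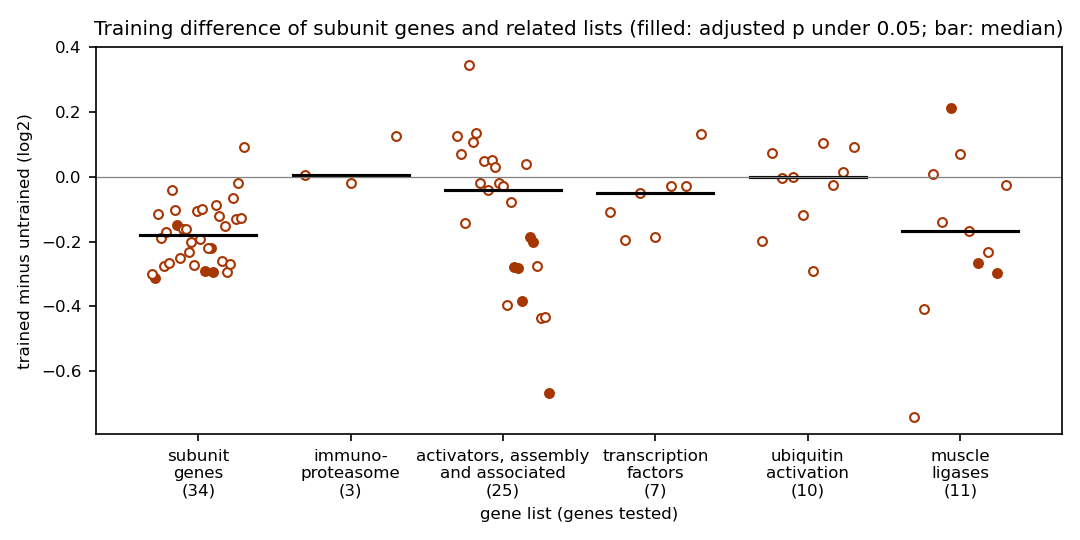
Log2 difference between trained and untrained mice, averaged over genotypes, of the 34 proteasome genes and of 5 related lists (points; filled where called; bar at the median; number of tested genes in parentheses). The subunit genes crowd between -0.31 and 0.09 around a median of -0.18, while the associated proteins spread from -0.67 to 0.35.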

How the data were processed

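The deposited file holds intensity values on a linear scale for 22690 probe sets and 20 arrays, hybridised with biotin-labelled total RNA per the labels. The sources used here do not state how probe sets were summarised, how arrays were scaled or why 1745 cells are empty; empty cells stayed missing. The 20th percentile of the table, 66.7, was added before taking log2. Without 64 control probe sets and those with a mean under the 40th percentile, 13576 remained. Genes were named through the platform's annotation, and all 36 matched a RefSeq table of assembly GRCm38.p6.

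Limma 3.58.1 in R 4.3.3 fitted the 4 group means with a variance trend (16 residual and 3.47 prior degrees of freedom) and tested 7 contrasts two-sided, with Benjamini-Hochberg adjustment over all 13576 probe sets. A run of the fit on simulated data drew independent noise for each probe set, without shifts that many genes of a mouse share. It cannot speak to the calls under such shifts. Values by mouse are given for the 6 genes with the smallest p for training, the 6 for the transgene, and Psmb5, Psmb6 and Psmb7; related lists by their called genes and a preset few. Genes, lists and tests were chosen with earlier results of these data known. Alternatives were quantile normalization, median centring, other added constants and filters, other variance models, other probe sets, and each array left out. The titles number the mice, 1 array each, and the number of arrays limits the precision.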

Additional observations from a re-analysis of the deposited data

Results flagged for a closer look

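In groups of 5 a value was singled out where its gap to the nearest other exceeds 0.71 of the group's range, which chance gives in about 1 of 20 groups. Of 56 groups of the genes given by mouse and of the mice's medians, 2 held such a value. Psmc6 read 1006 in trained transgenic mouse TGT-128, with the others between 1180.2 and 1238. Psmd12 read 1108 in trained wild-type mouse wtt-137, with the others between 1401 and 1507.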

How the results depend on the processing

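Over the alternatives run, the median for training averaged over genotypes ran from -0.22 to -0.15. That for training in transgenic mice ran from -0.32 to -0.17 and that for training in wild-type mice from -0.18 to -0.09. For the transgene averaged over training it ran from -0.13 to -0.04. For the transgene it ran from -0.11 to 0.02 in untrained mice and from -0.21 to -0.04 in trained mice. For the interaction it ran from -0.19 to -0.01. The SD between mice of a group was 0.13. The number of genes called for training averaged over genotypes was 5; it was 2 with arrays centred on their medians, 2 without a filter, 25 with array weights and 1 without the 2 arrays with the most empty cells, and from 0 to 19 with 1 array left out. For the transgene averaged over training the count of 0 became 1 with array weights and ran from 0 to 1 with 1 array left out. For training in transgenic mice it became 24 with array weights and ran from 0 to 11, and for the transgene in trained mice it became 8 with array weights. Array weights also raised the calls over all 13576 probe sets. Limma then called 1586 lower for training averaged over genotypes, 1467 for training in transgenic mice and 723 for the transgene in trained mice. With the main fit these numbers were 351, 24 and 7. With 1 array left out the number called lower for training averaged over genotypes ran from 109 to 662. The causes were not tested. Of the genes given by mouse, Psmc6 turned to 0.0199 for the transgene with its second brightest probe set, Psmb7 to 0.0103 and Psmb6 to 0.0533 under quantile normalization, and Psmb6 to 0.0109 with array weights; with 1 array left out Psmb6 ran from -0.0288 to 0.00425, above 0 without WTT-144 or TGUT-146. The median for the transgene in untrained mice also crossed 0, at 0.02 with array weights and 0.01 without TGUT-146. Under quantile normalization the median was -0.04 for the transgene in trained mice and -0.01 for the interaction. No paired analysis was possible because the groups share no replicate numbers.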
